A study of Mus musculus with 12 samples.

Results

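The genes described here carry out autophagy or work in the lysosome, and their RNA was measured in lower motor neurons of mice with a mutant TDP-43. A fixed list named 38 of them, and 37 were found by symbol among the 25965 entries of the count table: 19 autophagy genes and all 18 lysosome genes. The remaining symbol, Atg101, matched no entry. RefSeq gives 9430023L20Rik as its older name, and that entry was at 77.7 to 96.3 CPM over the libraries (CPM are counts scaled to an equal library total), but it was not counted as a member.

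Laser capture took these cells from lumbar cord, and all donors were C57BL/6 at 5 months of age. Their Tardbp gene, which encodes the RNA-binding protein TDP-43, carried the Q331K change on neither allele (+/+, wild type), on 1 allele (Q331K/+, heterozygous) or on both (Q331K/Q331K, homozygous), as a knock-in. The change is linked to amyotrophic lateral sclerosis. There were 4 libraries per genotype. The 3 groups share strain and age, and the labels give neither sex nor the number of animals behind a library. The p-values therefore measure the spread between libraries, which may be technical.

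Autophagy encloses cytoplasm in a double membrane, the autophagosome, which then fuses with the lysosome, where acid hydrolases digest the contents. The Ulk1 kinase complex starts the process, the Becn1 complex marks the membrane with a lipid, and conjugating enzymes attach the small proteins of the LC3 and GABARAP families to it. Motor neurons do not divide and have very long axons, so they depend on this route to remove damaged protein and organelles. Variants in several genes of the pathway cause neurodegenerative or lysosomal storage disease in people.

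Tfeb, a transcription factor, turns on many lysosomal genes by binding short sites built around the E-box CACGTG. RefSeq promoters (build GRCm38.p6, 250 bases before to 50 after a start) were at hand for 32 of the 37 members, and these were searched on both strands for GTCACGTG, which contains the E-box and reads CACGTGAC on the other strand. It was found for 5 of 17 lysosome genes (29.4%), Lamp1, Ctsa, Ctsd, Mcoln1 and Cln3, and for 3 of 15 autophagy genes (20%), Atg3, Atg7 and Atg14. Of all 27025 genes with a promoter in that table, 2.55% held it. The E-box alone was found for 41.2% of the lysosome genes, 26.7% of the autophagy genes and 8.09% of all genes. The stretches below show the match, in capitals, in 5 of these promoters, read 5′ to 3′ along the gene. A single match is shown for each gene where a stretch had at most 17 bases annotated as exon in GENCODE M21. The deposited table starts Lamp1 at 13159135, inside its stretch. In order they lie at chr8:13159113-13159160 (plus strand), chr8:3500426-3500473 (plus), chr7:142388045-142388077 (minus), chr16:45158713-45158760 (plus) and chr6:114670942-114670989 (plus, at a start inside the Atg7 gene).
Lamp1: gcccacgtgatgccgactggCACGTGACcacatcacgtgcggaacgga
Mcoln1: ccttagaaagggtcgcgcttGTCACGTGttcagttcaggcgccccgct
Ctsd: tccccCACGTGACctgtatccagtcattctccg
Atg3: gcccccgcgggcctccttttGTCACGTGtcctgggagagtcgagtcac
Atg7: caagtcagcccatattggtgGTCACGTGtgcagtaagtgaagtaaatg
A match describes the letters only and does not show that Tfeb binds there.

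Library totals ran from 60886825 to 83504446 counts, so even Tfeb, the least abundant member by CPM, had at least 249 counts in each library. Motor neuron markers were found in all 12 libraries, with Chat at 63.5 to 353 CPM and Nefh at 3532 to 6947 CPM. The captures also held RNA of other cells. The 7 oligodendrocyte markers summed to 916 to 2780 CPM, the 7 astrocyte markers to 559 to 1548 CPM and the 11 microglia markers to 54.4 to 116 CPM. Heterozygote replicate 1 and homozygote replicate 1 stood apart, with summed inhibitory interneuron markers of 3.75 and 0.87 CPM against 170 to 426 CPM in the other libraries. Excitatory interneuron markers summed to 29.5 and 110 CPM there, against 168 to 330 CPM. Nts alone made up most of these low sums (29 and 105 CPM), and no remaining library held more than 9.22 CPM of it. Slc17a6 was nearly absent from both captures (0.56 and 4.52 CPM), while the remaining libraries ranged from 160 to 323 CPM. The summed motor neuron markers of heterozygote replicate 1 and homozygote replicate 1 were 11264 and 11170 CPM against 4479 to 8349 CPM. Nefh alone made up most of each sum (6833 and 6947 CPM in these captures). Chat, Slc5a7, Mnx1, Prph, Nefh and Chodl were above all other libraries there. Isl1 (35.3 and 26.5 CPM against 4.21 to 46.2) and Ret (260 and 228 CPM against 172 to 498) were not. Differences with the smallest p-values are given with and without these captures where leaving them out moved the value by over 1.5 times, and for some others. In captured tissue, fewer cells of a type and less RNA per cell cannot be told apart.

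All 37 members were expressed at a level that could be tested. To compare genes, CPM was divided by the length of each gene's merged exons in kilobases (RPKM). The median wild type level was 11.9 RPKM for the autophagy genes and 25.9 RPKM for the lysosome genes, beside 3.2 RPKM for the 14577 tested genes with a length.

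**Figure D1:**
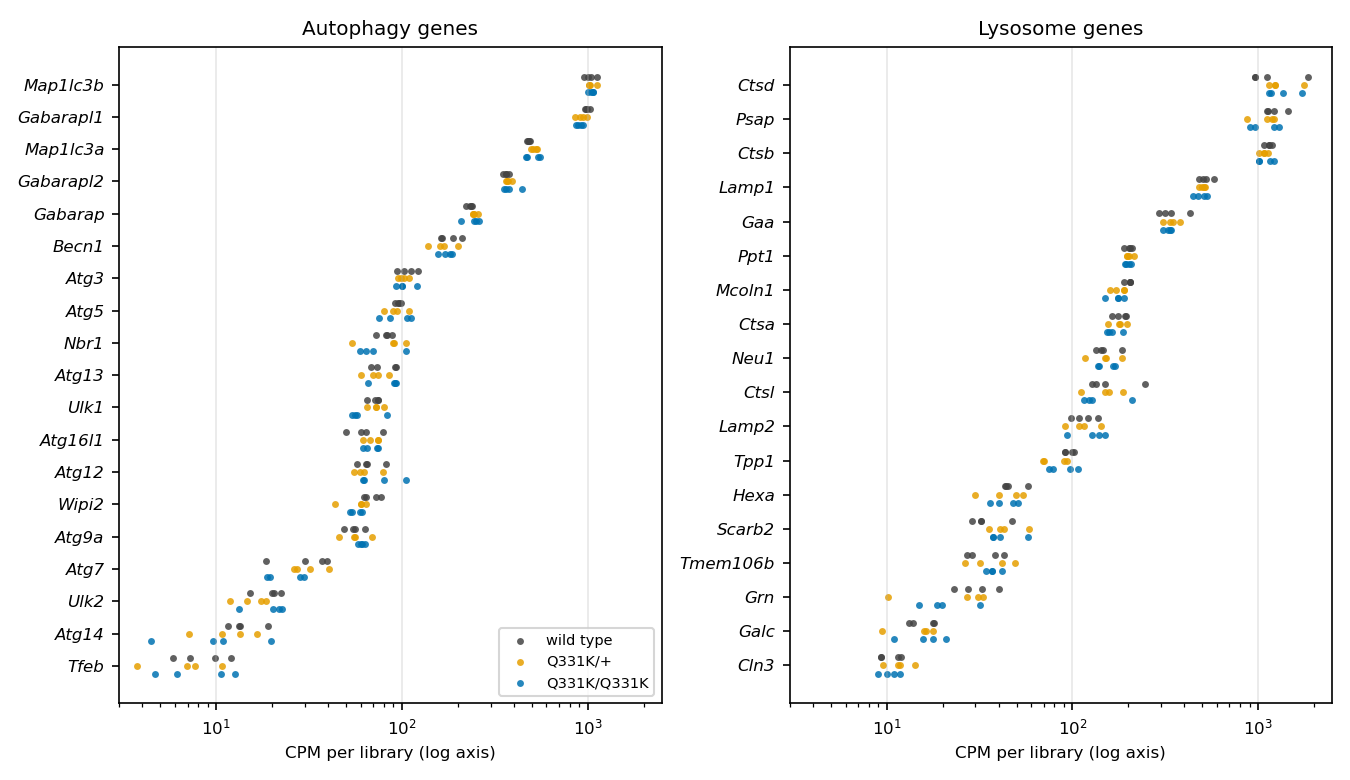
CPM of each autophagy and lysosome gene in each of the 12 libraries (log axis), 1 point per library, coloured by genotype, genes ordered by their median. The points of the 3 genotypes overlap for most genes, and Tfeb, Atg14 and Grn spread most widely.

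Among the autophagy genes, the LC3 and GABARAP family stood highest. These proteins are joined to the growing membrane and bind cargo receptors. In wild type, Gabarapl1 was at 494 ± 11.8 RPKM, Map1lc3a at 407 ± 6.02, Gabarapl2 at 157 ± 4.56, Map1lc3b at 137 ± 9.3 and Gabarap at 126 ± 4.5 RPKM (SD, n = 4 each). Gabarapl1 and Map1lc3a lay further apart than the spread between libraries, while Gabarap and Map1lc3b differed by about that spread. Gabarapl1 exceeded 99.5% of all tested genes with a length. The order of Map1lc3b depends on the length used: it was at 250 RPKM by its longest transcript, above Gabarapl2 at 217 RPKM.

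The enzymes and scaffolds that act before these proteins were lower. Atg5, which forms part of the conjugating complex, was at 40.7 ± 1.29 RPKM and Atg3, which transfers LC3 to lipid, at 34.2 ± 3.9 RPKM in wild type (SD, n = 4 each). Becn1, of the lipid kinase complex, was at 25.8 ± 3.24 RPKM. The starting kinase Ulk1 was at 11 ± 0.693 RPKM and its relative Ulk2 at 3.25 ± 0.503 RPKM. At the bottom of the list lay Atg7, the activating enzyme of both conjugation systems, at 4.48 ± 1.34 RPKM, and Atg14, which directs the Becn1 complex to autophagy, at 3.3 ± 0.741 RPKM. Tfeb was at 1.54 ± 0.48 RPKM (SD, n = 4 each), the lowest by merged exons. By the longest transcript Tfeb was at 3.73 RPKM and Atg7 at 8.02 RPKM, and Ulk2 was lowest at 3.38 RPKM.

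Among the lysosome genes, the aspartyl protease cathepsin D (Ctsd) and prosaposin (Psap), the precursor of proteins that help break down sphingolipids, stood highest, at 522 ± 184 and 446 ± 56.7 RPKM in wild type. Lamp1, an abundant glycoprotein of the lysosomal membrane, was at 195 ± 15.1 RPKM and the cysteine protease cathepsin B (Ctsb) at 188 ± 8.29 RPKM (SD, n = 4 each). Ctsd and Psap differed by less than the spread of Ctsd, and Lamp1 and Ctsb by less than that of Lamp1. The lowest were Scarb2, which carries glucocerebrosidase to the lysosome, at 5.59 ± 1.32 RPKM, Tmem106b, a lysosomal membrane protein, at 4.94 ± 1.07 RPKM, Cln3, whose loss causes juvenile Batten disease, at 1.81 ± 0.244 RPKM, and Galc, the galactosylceramidase lost in Krabbe disease, at 1.05 ± 0.171 RPKM (SD, n = 4 each). By the longest transcript Galc was at 3.52 RPKM and Cln3 at 3.27 RPKM, so their order also depends on the length. Lamp2, the other major membrane glycoprotein, was at 12.2 ± 1.77 RPKM (SD, n = 4), and at 32.3 RPKM by its longest transcript.

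Some of these levels may share reads with neighbours, because the kits keep no strand and the counting is not given in the sources used here. Grn, which encodes progranulin, is overlapped on the other strand by Fam171a2, whose counts came to 82.3% of those of Grn. Becn1 overlaps Cntd1 (30.1%), Ctsb overlaps Fdft1 (22.7%), Ppt1 overlaps Cap1 (15.8%) and Ctsd overlaps 6330512M04Rik on its own strand (29.5%). Values for these genes are uncertain. For the other 32 members the table holds no overlapping entry or entries that together have at most 7.32% of the gene's counts.

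The first question was what mutation of both alleles changes relative to +/+ libraries. No autophagy and no lysosome gene passed (edgeR adjusted p below 0.05), beside a background of 0.00612% of 16338 genes called. At an unadjusted p below 0.05 there were 2 autophagy genes and 1 lysosome gene, beside 4.92% of all genes, and DESeq2 and limma-voom also called 0 members. Of the autophagy genes 9 were higher and 10 lower, with a median log2 difference of -0.01, and of the lysosome genes 6 were higher and 12 lower, with a median of -0.07. Over all genes tested the median was 0.00.

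The 95% intervals, taken gene by gene without adjustment, give the range of change compatible with these libraries. The size of change that the adjusted test could miss was not computed. In homozygotes, the 95% interval lay within a 1.5-fold change in either direction for 15 of 19 autophagy genes and 14 of 18 lysosome genes, beside 34.9% of all tested genes. The exceptions were Atg7, Atg14, Tfeb and Atg12 among the autophagy genes and Scarb2, Ctsd, Grn and Ctsl among the lysosome genes. Only the intervals of Atg14 and Grn reached beyond 2-fold. The median level of both lists was above that of all genes, and the intervals of genes of like level were not compared. Some abundant genes had narrow intervals around 0. Map1lc3b, whose lipid-bound form is the usual marker of autophagosomes, had a log2 difference of 0.01 (interval -0.12 to 0.15), and Ppt1, the palmitoyl thioesterase lost in infantile Batten disease, one of -0.02 (interval -0.16 to 0.11).

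**Figure D2:**
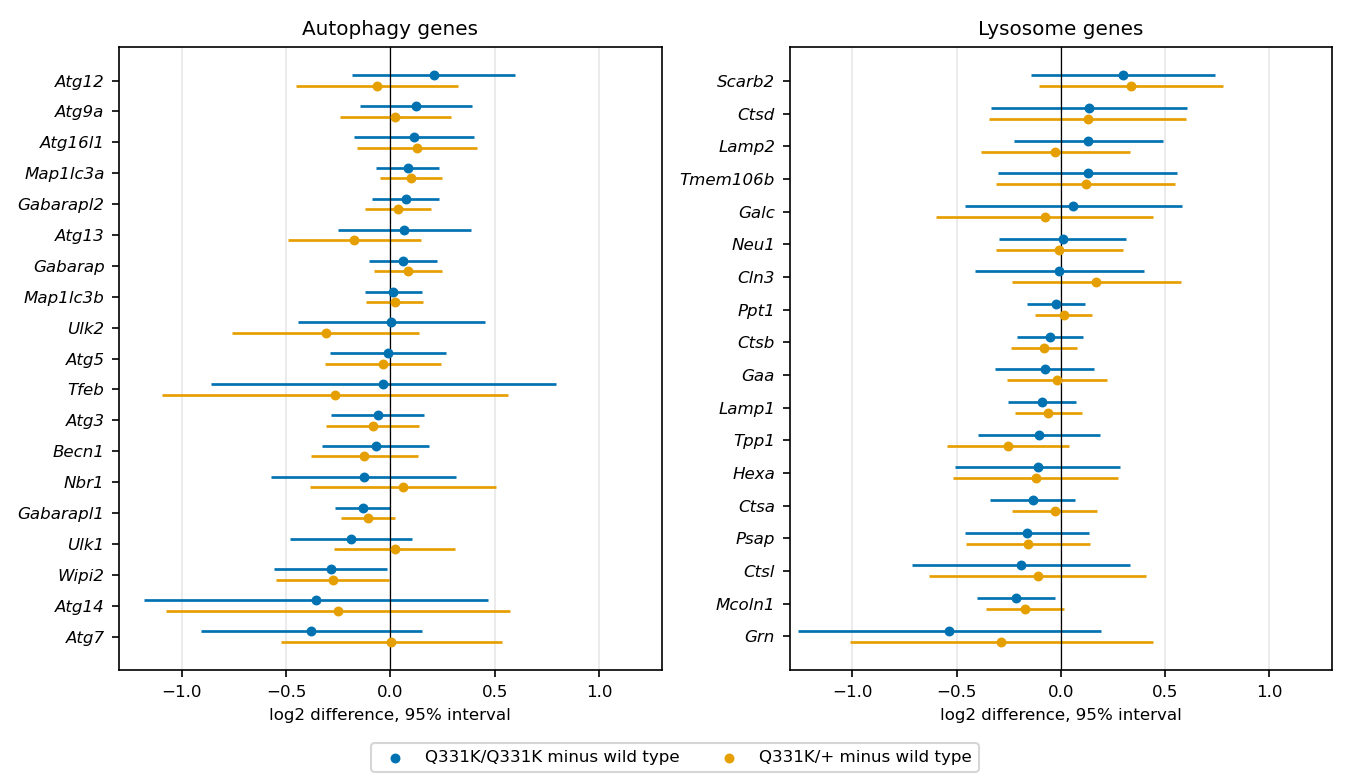
Log2 difference of each autophagy and lysosome gene from wild type in homozygotes (blue) and heterozygotes (orange), with 95% intervals from edgeR. The 4 intervals that exclude 0 are those of Wipi2 in both genotypes and of Gabarapl1 and Mcoln1 in homozygotes, and those of Atg14, Tfeb and Grn are the widest.

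In homozygotes the autophagy gene with the smallest p was Wipi2 (ENSMUSG00000029578, GRCm38 chromosome 5, 142629542 to 142670588, plus strand), which binds the lipid made by the Becn1 complex and recruits Atg16l1 to the membrane. Its CPM were 62.6, 63.7, 76.8 and 72.7 in wild type replicates 1 to 4, 43.7, 60, 64.2 and 59.9 in heterozygotes and 52.2, 60.6, 59.6 and 53.8 in homozygotes. The homozygote libraries all lay below the wild type libraries, while the heterozygotes overlapped them. Relative to wild type, Wipi2 had a log2 difference of -0.29 in homozygotes (95% interval -0.56 to -0.02, SE 0.13, edgeR adjusted p = 0.99) and -0.28 in heterozygotes (SE 0.13, adjusted p = 0.999). Without the 2 captures that stood apart, both of which held less Wipi2 than any other library, these were -0.25 and -0.17.

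Gabarapl1 (ENSMUSG00000030161, chromosome 6, 129533200 to 129542331, plus strand), an LC3 relative highly expressed in brain, came next. Its CPM were 972, 981, 998 and 1026 in wild type, 851, 990, 906 and 947 in heterozygotes and 868, 886, 926 and 946 in homozygotes. Again the homozygote libraries all lay below the wild type libraries and the heterozygotes overlapped them. The log2 difference in homozygotes was -0.13 (SE 0.06, adjusted p = 0.99 in edgeR), and -0.11 without the captures that stood apart, which had the 2 lowest values. In heterozygotes it was -0.11 (SE 0.06, adjusted p = 0.999), and -0.07 without those captures. Atg7 followed, at 18.5, 36.9, 30.2 and 39.3 CPM in wild type, 40.2, 32, 26.1 and 27.1 in heterozygotes and 29.6, 18.7, 19.4 and 28.4 in homozygotes. Its lowest library was a wild type one, and the log2 difference was -0.38 in homozygotes (SE 0.24, interval -0.91 to 0.15, adjusted p = 0.99 in edgeR).

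Wipi2 and Gabarapl1 were the autophagy genes whose homozygote and wild type libraries did not overlap, 2 of 19 beside a background of 3.41% of all genes, and no lysosome gene was separated in this way. In heterozygotes against wild type, the separated members were Map1lc3a and Gabarap, again 2 of 19, beside 3.24% of all genes. The CPM of Map1lc3a spanned 473 to 489 in +/+, 496 to 531 in Q331K/+ and 467 to 555 in Q331K/Q331K libraries. Those of Gabarap spanned 220 to 240, 242 to 257 and 209 to 261 in the same order. The homozygotes of both genes overlapped wild type. Neither passed the test, with log2 differences of 0.10 (interval -0.05 to 0.25) and 0.09 (interval -0.08 to 0.25) in heterozygotes, and 0.09 and 0.07 without the captures that stood apart.

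**Figure D3:**
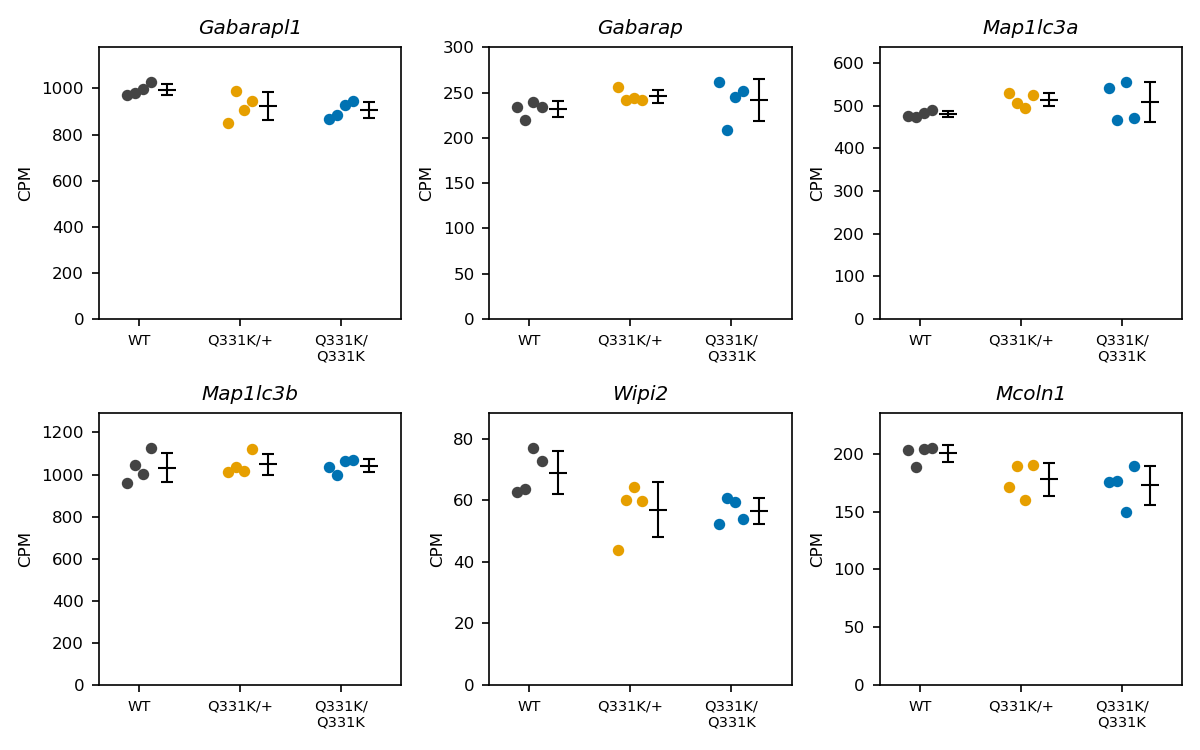
CPM of 4 genes of the LC3 and GABARAP family, of Wipi2 and of Mcoln1 by genotype, 1 point per library, with mean and SD beside them. Homozygote points lie below all wild type points for Gabarapl1 and Wipi2, by small margins, and Map1lc3b is level across genotypes.

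The lysosome gene with the smallest p was Mcoln1 (ENSMUSG00000004567, chromosome 8, 3500457 to 3515232, plus strand), the calcium channel of the lysosomal membrane lost in mucolipidosis type IV. Its CPM were 203, 189, 204 and 205 in wild type, 172, 189, 160 and 190 in heterozygotes and 176, 176, 149 and 190 in homozygotes. The lowest wild type library lay at the level of the highest mutant libraries, and the other wild type libraries lay above all mutant ones. The log2 difference was -0.21 in homozygotes (SE 0.09, interval -0.40 to -0.03, adjusted p = 0.99 in edgeR) and -0.17 in heterozygotes (SE 0.09, interval -0.36 to 0.02, adjusted p = 0.999). Without the captures that stood apart these were -0.22 and -0.15.

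Grn and Scarb2 followed in homozygotes. Grn was at 27.3, 23, 40.4 and 32.8 CPM in wild type, 10.1, 31.1, 32.9 and 27.2 in heterozygotes and 14.9, 19.8, 31.9 and 18.7 in homozygotes, so the groups overlapped. Its log2 difference was -0.53 in homozygotes (SE 0.34, interval -1.26 to 0.19, adjusted p = 0.99 in edgeR), and -0.39 without the captures that stood apart. Scarb2 was at 47.3, 32, 28.8 and 32.4 CPM in wild type, 58.6, 42.8, 35.6 and 40.6 in heterozygotes and 57.3, 37.4, 37.4 and 40.7 in homozygotes. Wild type replicate 1 lay among the mutant libraries. The log2 differences of 0.30 (SE 0.20) and 0.34 (SE 0.20) came to 0.13 and 0.18 without the captures that stood apart, which had the 2 highest values.

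The next question was what mutation of a single allele changes. No member passed in edgeR, DESeq2 or limma-voom, beside 0% of all genes in edgeR. At an unadjusted p below 0.05 there was 1 autophagy gene, Wipi2, and no lysosome gene, beside 4.12% of all genes. Of the autophagy genes 9 were higher and 10 lower (median log2 difference -0.04), and of the lysosome genes 5 were higher and 13 lower (median -0.04), beside a median of 0.00 over all genes. The comparison shares its wild type libraries with that of the homozygotes. Mean Ulk2 was 15.7 ± 2.98 CPM in heterozygotes and 19.4 ± 3 in +/+ libraries (SD, n = 4 each). Mean Tpp1, the peptidase lost in late infantile Batten disease, was 80.7 ± 12.8 and 96.3 ± 5.78 CPM in the same order. Log2 differences from wild type were -0.31 (SE 0.21) and -0.26 (SE 0.14), and neither passed.

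Between the mutant genotypes no member passed in edgeR, DESeq2 or limma-voom, beside 0% of all genes in edgeR, and none reached an unadjusted p below 0.05, beside 2.99% of all genes. The median log2 difference was -0.01 for the autophagy genes and -0.02 for the lysosome genes. No member had separate libraries, beside 2.03% of all genes. The autophagy genes with the smallest p were Atg13, Atg7 and Ulk1. Atg13, a scaffold of the Ulk1 complex, was at 72.4 ± 10.1 CPM in heterozygotes and 85.5 ± 13.3 CPM in homozygotes, and Ulk1 at 72.3 ± 6.12 and 62.5 ± 13.8 CPM (SD, n = 4 each). The log2 differences were 0.24 (interval -0.08 to 0.56) for Atg13 and -0.21 (interval -0.50 to 0.08) for Ulk1, and 0.27 and -0.20 without the captures that stood apart. Among the lysosome genes, Ctsa, a protease that protects neuraminidase, had a difference of -0.11, Tpp1 of 0.15 and Lamp2 of 0.16, each with an interval that included 0. Without the captures that stood apart these were -0.13, 0.27 and 0.20. On leaving out single libraries Ctsa ran from -0.17 to -0.06, Tpp1 from 0.05 to 0.23 and Lamp2 from 0.06 to 0.29.

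No member passed the edgeR test of any genotype difference (0% of all genes called, with 0 members and 3.57% of all genes at an unadjusted p below 0.05) or the slope over 0, 1 and 2 mutant alleles (0.00612% of all genes called), and DESeq2 and limma-voom called 0 members in both. The smallest unadjusted p-values for the slope were those of Mcoln1 (0.0243), Wipi2 (0.0383) and Gabarapl1 (0.0403), each with an adjusted p of 0.985 in edgeR. These 2 autophagy genes and 1 lysosome gene were the members below 0.05 for the slope, beside 4.76% of all genes.

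The remaining autophagy genes overlapped between genotypes as well. Atg9a, the membrane protein of the vesicles that seed autophagosomes, was at 48.8 to 63.4 CPM in wild type and 58.1 to 63.2 CPM in homozygotes. Atg12 and Atg16l1, partners of Atg5 in the conjugating complex, had log2 differences of 0.21 and 0.11 in homozygotes. Nbr1, a receptor for ubiquitinated cargo, ran from 54.1 to 106 CPM within the heterozygotes alone, and Atg14 from 4.45 to 19.6 CPM within the homozygotes alone. Mean Tfeb was 8.73 ± 2.72 CPM in +/+, 7.26 ± 2.86 CPM in Q331K/+ and 8.52 ± 3.75 CPM in Q331K/Q331K libraries (SD, n = 4 each). Its means differed by less than the SD of any genotype.

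The remaining lysosome genes behaved likewise. Psap was at 1224 ± 155, 1099 ± 156 and 1095 ± 193 CPM in wild type, heterozygotes and homozygotes, and Ctsb at 1139 ± 50.2, 1076 ± 46 and 1099 ± 108 CPM. Lamp1 was at 522 ± 40.5, 500 ± 16.8 and 490 ± 36.9 CPM in that order (SD, n = 4 each). The mutant means of these genes lay below wild type, and none passed the test. Gaa, the acid glucosidase lost in Pompe disease, was at 345 ± 61.1, 341 ± 29.7 and 327 ± 15 CPM, and Neu1, the sialidase that Ctsa protects, at 152 ± 22.3, 151 ± 27.8 and 153 ± 17.7 CPM. Tmem106b, a risk gene for frontotemporal dementia, was at 34.2 ± 7.44, 37.2 ± 10.1 and 37.4 ± 3.14 CPM (SD, n = 4 each).

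The members also varied among themselves in how steady they were. The standard deviation of log2 CPM over the 12 libraries had a median of 0.18 for autophagy genes and 0.21 for lysosome genes, beside 0.34 for all tested genes with a length. The members were also more abundant, with medians of 11.9 and 25.9 RPKM beside 3.2 RPKM, and genes of like level were not compared. The standard deviation was smallest for Ppt1 (0.05), at 190 to 216 CPM, and Map1lc3b (0.07), at 960 to 1124 CPM. It was largest for Atg14 (0.57), at 4.45 to 19.6 CPM, Grn (0.56), at 10.1 to 40.4 CPM, Tfeb (0.52), at 3.73 to 12.7 CPM, and Atg7 (0.39), at 18.5 to 40.2 CPM.

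For 4 of 19 autophagy genes (21.1%) and 6 of 18 lysosome genes (33.3%) both captures that stood apart lay outside the range of the other 10 libraries, beside 20.8% of all genes tested. This count was chosen after the values were seen, and the autophagy share is that of all genes. Scarb2 and Lamp2 were above that range, at 58.6 and 57.3 CPM against 28.8 to 47.3 CPM and at 143 and 150 CPM against 90.9 to 139 CPM. Grn, the hydrolase subunit gene Hexa, the cysteine protease cathepsin L gene Ctsl and Ctsa were below it. For Hexa the values were 29.7 and 36.2 CPM, below a range of 40 to 57.4 CPM, and for Ctsl 111 and 116 CPM, below a range of 122 to 246 CPM. Among the autophagy genes Gabarap was above the range, while Gabarapl1, Wipi2 and Atg13 were below it.

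Ctsd was high in 3 libraries, at 1867 CPM in wild type replicate 1, 1762 CPM in heterozygote replicate 1 and 1722 CPM in homozygote replicate 1, against 961 to 1359 CPM in the others. These are the 3 libraries with the largest summed motor neuron markers, wild type replicate 1 being the next highest at 8349 CPM. They were also the 3 highest for Scarb2 and the 3 lowest for Neu1. Of the 18 lysosome genes 2 (11.1%) were highest and 1 (5.56%) was lowest in these 3 libraries, and of the 19 autophagy genes 0 were either. Over all genes tested the shares were 4.79% and 4.78%. This count was made after the values were seen, and the 2 highest genes include Ctsd itself. The 11 microglia markers, a cell type rich in lysosomal enzymes, summed to 98.2, 77.6 and 91.4 CPM in the 3 libraries and to 54.4 to 116 CPM over all 12. Cx3cr1 and P2ry12, which define microglia, were at 0 to 2.82 CPM. The summed astrocyte markers were 559 and 640 CPM in the captures that stood apart, against 911 to 1548 CPM in the others, through Aldoc (467 and 511 against 791 to 1281 CPM). The other 6 astrocyte markers summed to 91.4 and 129 CPM there, within the 80.5 to 267 CPM of the others. The part of other cells in these levels was not tested.

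**Figure D4:**
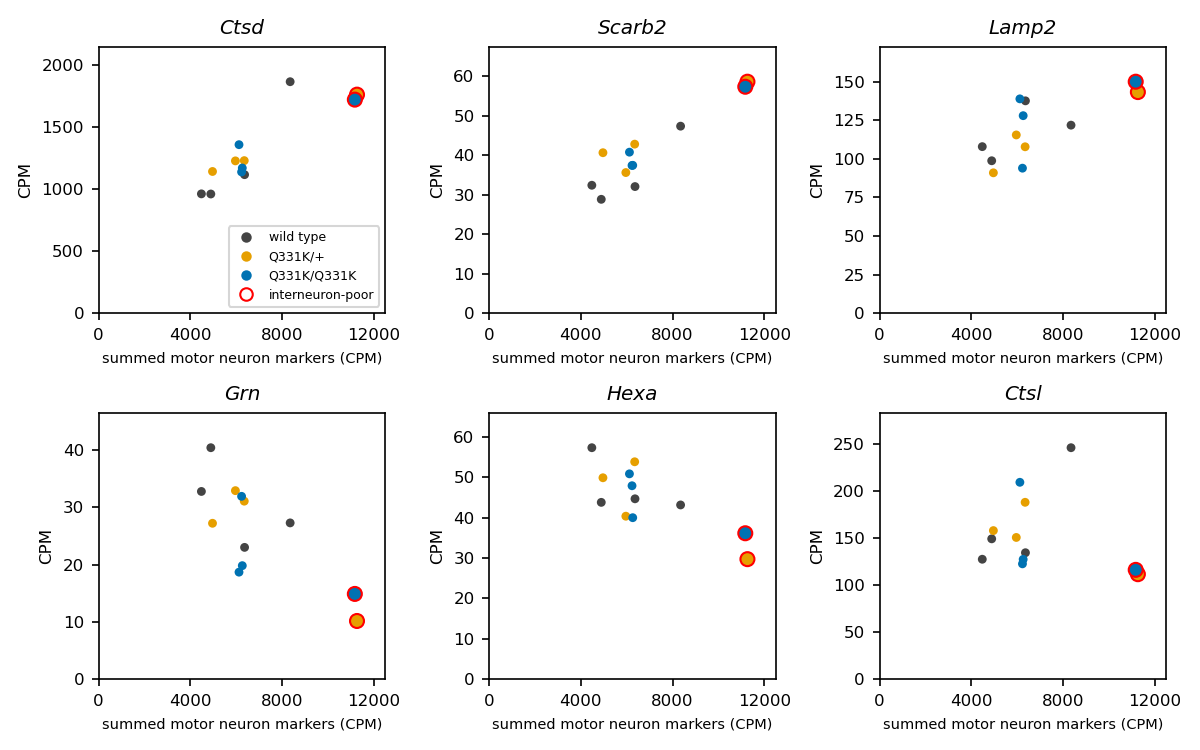
CPM of 6 lysosome genes against the summed CPM of 8 motor neuron markers, 1 point per library, coloured by genotype, with the 2 interneuron-poor captures ringed in red. Ctsd and Scarb2 are highest in the 3 libraries with the largest marker sums, as are 4.79% of all genes tested. Most of each sum is Nefh, and Isl1 and Ret do not follow it in the ringed captures. Grn and Hexa are lowest in the ringed libraries.

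Other genes of the route were taken from 7 lists, of which 132 genes were tested. None of these passed in any comparison in edgeR, and 7 (5.3%) had an unadjusted p below 0.05 in homozygotes against wild type, beside 4.92% of all genes. In homozygotes against wild type, 9 of 22 further core autophagy genes were higher and 13 lower, 5 and 7 of 12 cargo receptors, and 5 and 7 of 12 genes of autophagosome fusion. The counts were 15 and 15 for 30 other hydrolases, 7 and 12 for 19 other membrane and sorting proteins, 8 and 10 for 18 subunits of the proton pump, and 8 and 11 for 19 genes of mTORC1, AMPK and the Tfeb family. Their median log2 differences lay between -0.10 and -0.01.

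The smallest p-values in those lists for homozygotes against wild type were those of Tmem41b, Atp6v1b2, Rragb and Vps41. Tmem41b, a lipid scramblase needed to form autophagosomes, averaged 92.8 ± 6.21 CPM in +/+ and 79 ± 5.36 CPM in Q331K/Q331K libraries. Atp6v1b2, a subunit of the proton pump, was at 1429 ± 72.4 and 1221 ± 91.9 CPM, and Vps41, of the complex that tethers vesicles to lysosomes, at 266 ± 12.3 and 234 ± 22.2 CPM (SD, n = 4 each). Rragb, a GTPase that brings mTORC1 to the lysosome, averaged 215 ± 10.3 CPM in +/+, 159 ± 23.6 in Q331K/+ and 164 ± 42 in Q331K/Q331K libraries (SD, n = 4 each). Its log2 difference was -0.39 in homozygotes (SE 0.16, adjusted p = 0.99 in edgeR) and -0.43 in heterozygotes (SE 0.16, adjusted p = 0.999), and -0.24 and -0.33 without the captures that stood apart.

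In heterozygotes against wild type, Rragb was followed by Atp6v0e, another pump subunit, at 42.5 ± 6.27 against 33.4 ± 1.93 CPM, Atg10, a conjugating enzyme, at 23.7 ± 2.83 against 29.8 ± 2.72 CPM, and the hydrolase gene Sgsh at 5.22 ± 2.98 against 2.66 ± 0.12 CPM (SD, n = 4 each). The Sgsh difference came to 0.49 from 0.97 on the log2 scale without the captures that stood apart. Between the mutants, the lysosomal channel gene Tpcn2 was at 2.3 ± 0.572 CPM in heterozygotes and 5.15 ± 2.06 CPM in homozygotes, and Prkaa1, a catalytic subunit of AMPK, at 63.3 ± 6.36 and 49.7 ± 8.38 CPM (SD, n = 4 each). Vps16 (log2 difference 0.22, and 0.13 without the captures that stood apart) and Zfyve1 (-0.45) came next, and none of these passed.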

How the data were processed

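Raw counts per gene were deposited by the authors. The submitters' processing notes name Trim Galore (0.4.3), HISAT2 (2.0.5) and the build GRCm38. How reads were assigned to genes, with which annotation and strandedness, is not given in the sources used here. Per the labels' protocols, libraries were made by template switching and a transposase, and these kits add no molecular identifiers. From the counts, 16338 genes were kept by filterByExpr and scaled by TMM (factors 0.94 to 1.03) in edgeR 4.0.16 (R 4.3.3). Robust quasi-likelihood models over all 12 libraries, with genotype or the number of mutant alleles as the term, gave two-sided tests, adjusted by Benjamini-Hochberg over all genes (threshold 0.05), and 95% intervals. Log2 spreads used a pseudocount of 0.5 CPM. RPKM used merged exons of GENCODE M21. Alternatives were DESeq2 1.42.0, limma-voom with quality weights (limma 3.58.1), other scaling and filters (none, or 1 CPM in 4 libraries), a replicate block, fewer libraries and the longest transcript as length. Steps were tested on simulated counts. Libraries of a genotype differed far beyond counting error (chi-square per degree of freedom at least 61 over 18 pairs). The members and lists were chosen with earlier results of these data known. Log2 differences are given for the 3 members of each list, and the 4 genes of the other lists, with the smallest p in each pair of genotypes, levels for the 4 highest and lowest of each list by RPKM and the 4 with the largest spread. Members named outside this rule were chosen after their values were seen.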

Additional observations from a re-analysis of the deposited data

Results flagged for a closer look

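Of 111 groups of 4 libraries (37 genes in 3 genotypes), 8 held a library far from the other 3 of its genotype by Dixon's test. For normally distributed values the test flags about 1 in 20 by chance. The share over all genes tested was not computed, so the count cannot be read as a trait of the members. The test reads each gene and genotype alone.

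Among the autophagy genes, Ulk1 was at 83 CPM in homozygote replicate 2 against 53.7 to 57.5 CPM, Atg13 at 65.5 CPM in homozygote replicate 1 against 91 to 93.3 CPM, and Gabarap at 257 CPM in heterozygote replicate 1 against 242 to 244 CPM. Among the lysosome genes, Ctsd was at 1760 CPM in heterozygote replicate 1 against 1140 to 1230 CPM, and Scarb2 at 57.3 CPM in homozygote replicate 1 against 37.4 to 40.7 CPM. Ctsl was at 209 CPM in homozygote replicate 4 against 116 to 127 CPM, Hexa at 57.4 CPM in wild type replicate 4 against 43.2 to 44.7 CPM, and Mcoln1 at 189 CPM in wild type replicate 2 against 203 to 205 CPM. Of the 8, 4 were in heterozygote replicate 1 or homozygote replicate 1, the captures with almost no inhibitory interneuron marker RNA. For 20.8% of all genes tested, both of these captures lay outside the range of the other libraries.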

How the results depend on the processing

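No member was called under the 20 alternative settings of the tests, of which the fit to only 8 libraries covers the pairwise comparisons alone. The log2 differences of the genes with the smallest p kept their sign under these settings, and those of other genes were not followed through all of them. The count over all genes in homozygotes against wild type was 1, against 13 with DESeq2, 6 with the replicate block, 0 with only the 8 libraries compared, 0 without both interneuron-poor libraries and 0 to 1 on leaving out single libraries. For the slope it was 1, against 12 with DESeq2, 4 with the replicate block and 0 to 2 on leaving out single libraries. DESeq2 called 9 genes in heterozygotes against wild type, 3 between the mutants and 5 for any genotype difference, where edgeR called 0. The autophagy median in heterozygotes moved from -0.04 to -0.0848 with limma-voom and to 0.01 without heterozygote replicate 2, and between the mutants it ran from -0.0224 to 0.0382 on leaving out single libraries, being highest without homozygote replicate 2. The autophagy median in homozygotes also changed sign, from -0.04 to 0.01 over all settings, so neither direction is settled. With the replicate block the medians in homozygotes were -0.03 for autophagy and -0.06 for lysosome genes. By the labels, same-numbered libraries share only a number. Their deviations correlated at -0.06 to 0.59 over 12 pairs, 6 of them above 0.1. Pairs with different numbers ran from -0.33 to 0.19, and only pairs of replicate 1 libraries exceeded that range. Of the 12 libraries, 5 correlated best with their own number, and how many would do so with unrelated numbers was not computed. The highest value was that of heterozygote and homozygote replicate 1 (0.59), and wild type replicate 1 correlated with these at 0.195 and 0.202. What the replicate 1 libraries have in common was not tested. Depth is lowest for Tfeb (at least 249 counts per library), Atg14 (307), Cln3 (581) and Galc (626).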
